A study of Drosophila melanogaster with 4 samples.

Results

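The genes described here encode 4 related families of neuronal surface proteins of the immunoglobulin superfamily, namely Dpr, DIP, Beat and Side. They were chosen by FlyBase symbol, as every gene named dpr with a digit, DIP-, beat- or side. Of 54 such symbols in the reference gene table, 52 had a row in the count tables, among 14885 genes in all, and these are 21 Dpr, 10 DIP, 13 Beat and 8 Side genes. The other two, beat-IIIa and DIP-lambda, had no row under their reference identifiers and are not analysed here. RNA was sequenced from whole eye-antennal imaginal discs of *Drosophila melanogaster*, the larval epithelia that form the adult eye and antenna, taken from wandering larvae of the third instar. The wild-type group holds 1 library of the strain Canton S and 1 of the strain RAL-208, both labelled wild-type. The mutant group holds 2 libraries of gl[60j], an allele of glass, whose product is a zinc finger transcription factor needed for photoreceptors to differentiate. The design text calls the strains biological replicates and the mutant libraries technical replicates, so the mutant is 1 sample, and its stock background cannot be told apart from its genotype. Neither the larvae's sex nor how many discs went into a library is stated in the labels.

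Dpr and DIP proteins sit on the surface of neurons and bind each other in a selective code, in which each DIP recognises a small set of Dprs and different neuron types carry different combinations. The founding gene, dpr1, is named for a defective proboscis extension response to salt, and DIP stands for Dpr-interacting protein. Beat proteins, named after beaten path, and Side proteins, named after sidestep, form a second such network. In it, Beat-Ia on motor axons detects Side on the tissue along the axon's route. In the visual system these families are best known from the optic lobe, the brain region where photoreceptor axons end and where synaptic layers are matched, and R7 photoreceptors carry Dpr11, whose partner DIP-gamma marks a class of their targets.

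Reads assigned to genes totalled 12118170 for Canton S, 11805345 for RAL-208, and 11292175 and 27044633 for gl[60j], and levels are given as CPM, a gene's reads per 1000000 of these. A floor of 3 reads came to between 0.111 and 0.266 CPM. The transcript of gl itself stood at 299 CPM for Canton S, 235 for RAL-208, and 105 and 108 for gl[60j], which is lower in the libraries labelled mutant, with an edgeR adjusted p of 0.209 for summed and 0.0143 for separate mutant libraries. Neuronal markers also differed between the groups. Neuronal genes used in the central nervous system (CNS) summed to 417 and 522 CPM in wild type against 167 and 155 in gl[60j], and for 20 of the 21 measured both mutant libraries lay below both wild types, against 30.3% of all genes and 40.8% of those with a mean of at least 1 CPM. Photoreceptor and retinal neuron markers summed to 1932 and 2012 CPM in wild type against 887 and 879 in gl[60j], with 15 of 17 lower without overlap, beside the same shares. This list includes gl itself and genes of neurons in general, such as elav and nSyb, so these lists do not separate retinal from CNS neurons. None of the 21 CNS markers was at 0 in a mutant library. Among the photoreceptor markers Pph13 was at 0 in both mutant libraries. The part of either cell population in the results below was not tested, and in whole discs fewer cells of a type and less RNA per cell cannot be told apart.

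Nearly all of these genes were expressed, and nearly all were lower in the glass mutant. At least 1 CPM in at least 1 library was reached by 51 of 52 members, against 9432 of 14885 genes (63.4%), and all 51 reached it in both wild types. The exception was DIP-iota, with 2, 5, 0 and 7 reads in Canton S, RAL-208 and the mutant libraries. In the mutant 36 members reached 1 CPM in both libraries, and 9 that were above 1 CPM in both wild types were under it in both. No share of all genes is given for either count. In wild type these 9 ran from 1.07 CPM (dpr2, Canton S) to 18.7 (dpr18, RAL-208), so some began near the threshold. A member's median level was 6.27 CPM for Canton S, 7.88 for RAL-208, and 1.73 and 1.85 for the mutant libraries, levels at which counting error adds to the spread of most members.

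**Figure D1:**
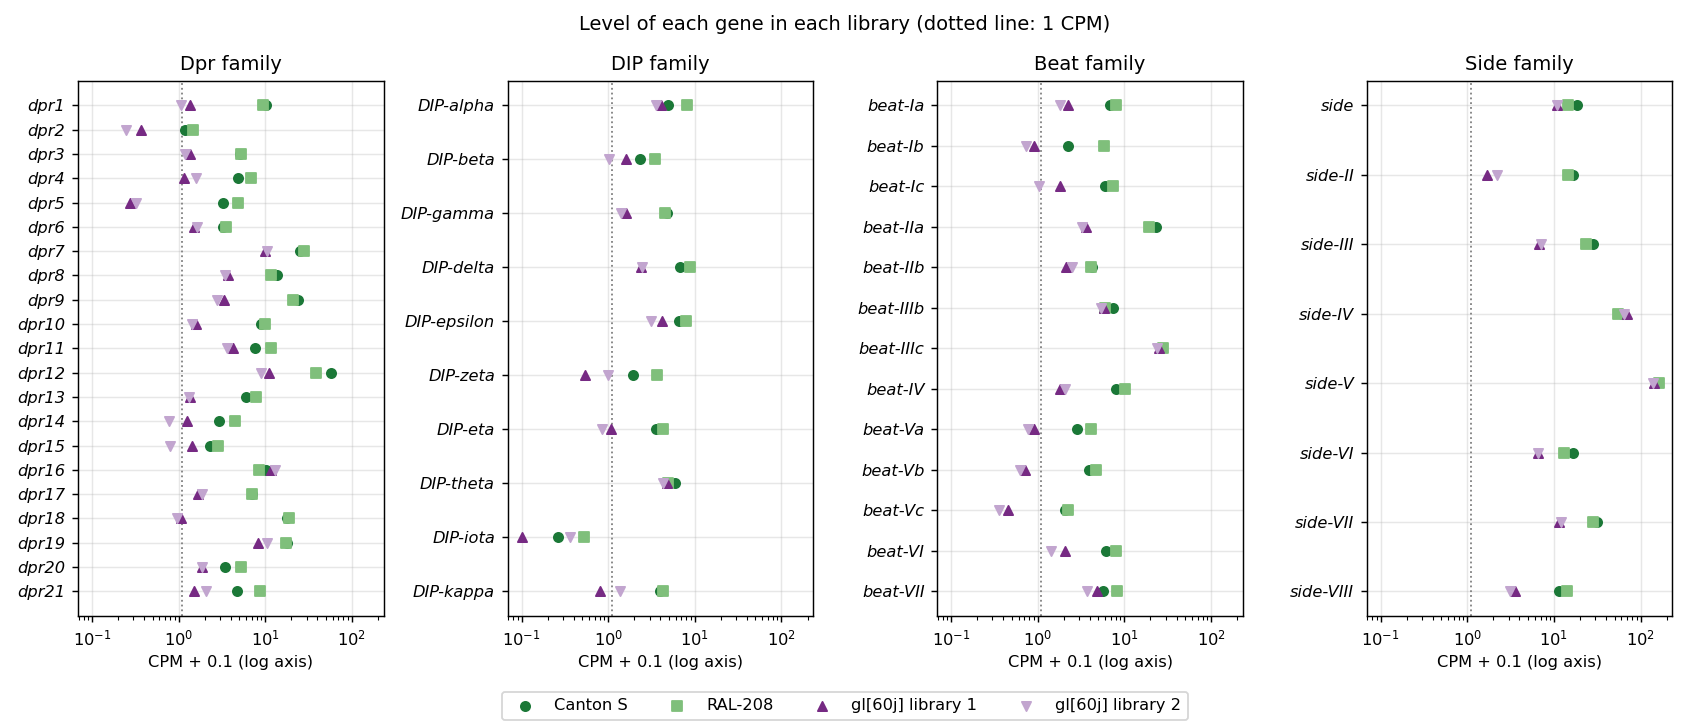
CPM plus 0.1 on a log axis (x) for each gene (y) in the 4 libraries, with circles for Canton S, squares for RAL-208 and triangles for the gl[60j] libraries, and a dotted line at 1 CPM. The triangles lie to the left of the wild-type symbols for 49 of 52 genes, to the right for dpr16 and side-IV, and overlap them for DIP-iota.

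Both mutant libraries lay below both wild types for 49 of 52 members, against 30.3% of all 14885 genes, and above both for 2 members, dpr16 and side-IV, against 18.3%. Among genes with a mean of at least 1 CPM over the libraries, 48 of 50 members lay below, against 40.8%, and 2 above, against 26.1%. A gap of at least 2-fold on the scale of CPM plus 1, between every mutant and every wild-type library, was seen for 28 members in the lower direction, against 3.43% of all genes, and for 0 in the higher direction, against 0.652%. Among genes with a mean of at least 1 CPM these counts were 28 of 50, against 5.66%, and 0, against 1.06%. By ratio of mean CPM, 41 members were at least 2-fold lower, 23 at least 4-fold and 4 at least 8-fold. These ratios carry no pseudocount, so counting error widens them at low levels, and no share of all genes is given for them. The fit took 51 members past its low-count filter, all but DIP-iota, and their median log2 fold change was -1.81, beside 0.0014 for all 9059 genes tested.

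No member passed the test that treats the mutant as 1 sample. At this setting the quasi-likelihood test of edgeR, with the mutant libraries summed, called 0 of 9059 genes at an adjusted p under 0.05, 0.0% in either direction, and the adjusted p of members ran from 0.182 to 0.857. At an unadjusted p under 0.05 in that fit, 32 of 51 members were lower, against 10.2% of genes tested, and 0 higher, against 6.44%. On the same columns limma-voom also called 0 genes, with 35 members lower at an unadjusted p under 0.05, against 11.6%, and 0 higher, against 8.26%. DESeq2 called 12 members lower, against 4.28%, and 0 higher, against 1.68%. With the mutant libraries entered as separate samples, edgeR called 32 members lower, against 11.3%, and 0 higher, against 8.05%. These 32 include all 12 of DESeq2. Because part of the spread in that last fit is technical, its p-values are too small, and its calls are used here to describe and rank. Below, a gene termed called is one of these 32.

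The summed level of the Dpr family differed most between the groups and that of the Side family least, although these differences between families were not tested. By median log2 fold change the Beat family stood lowest instead, at -2.18, before Dpr at -2.002, DIP at -1.63 and Side at -1.20. Dpr genes summed to 234 and 231 CPM in wild type against 67.7 and 67.4 in gl[60j], 3.44-fold lower. Beat genes summed to 103 and 115 CPM in wild type against 51.01 and 46.3 in gl[60j], 2.24-fold lower, and DIP genes to 39.9 and 49.3 CPM in wild type against 20.2 and 18.3 in gl[60j], 2.31-fold lower. Side genes, the most abundant family, summed to 339 and 323 CPM in wild type against 251 and 247 in gl[60j], 1.33-fold lower. The Dpr share of all member reads was 32.7% in Canton S (exact 95% interval 31.7 to 33.7) and 32.1% in RAL-208 (31.2 to 33.2), and 17.4% (16.2 to 18.5) and 17.8% (17.1 to 18.6) in the mutant libraries. The Side share was 47.3% and 44.97% in the wild types against 64.4% and 65.1% in gl[60j], where side-V alone supplied 36.4% and 37.2%. Intervals and floors cover counting error only, since reads are not independent molecules.

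**Figure D2:**
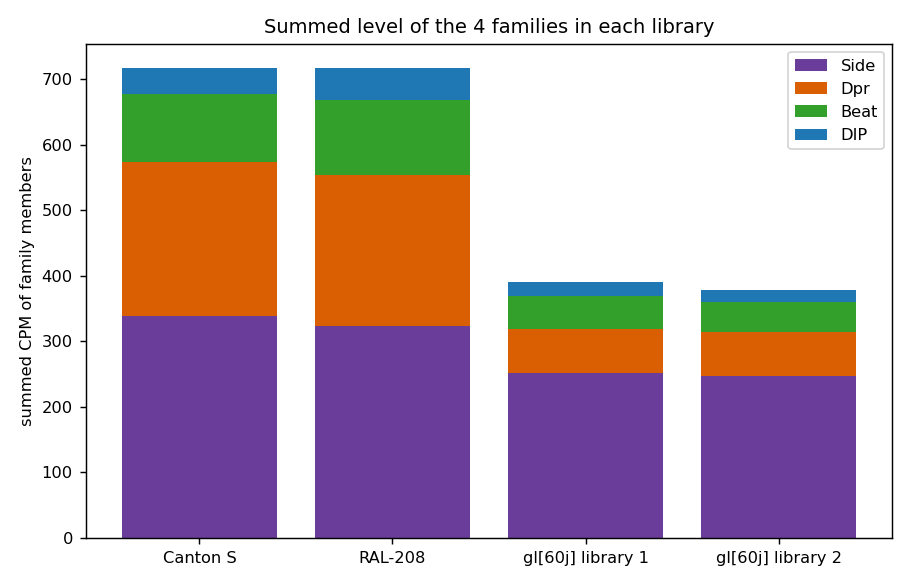
Summed CPM (y, from 0) of the members of each family, stacked, in each of the 4 libraries (x), without error bars since each bar is 1 library. The Dpr segment is 234 and 231 CPM in the wild types against 67.7 and 67.4 in gl[60j], and the Side segment 339 and 323 against 251 and 247.

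Among the 21 Dpr genes, 20 lay below wild type in both mutant libraries, against 30.3% of all genes. Of these, 15 were called lower, against 11.3% of genes tested. The median log2 fold change of the family was -2.002. The widest gap was that of dpr18, with Canton S at 17.7 CPM, RAL-208 at 18.7 and the gl[60j] libraries at 0.974 and 0.850, which is 19.9-fold lower (log2 fold change -4.28, SE 0.35). Its wild-type levels lie close together and far above both mutant values, and it had the smallest edgeR adjusted p of any member, 0.182 with summed mutant libraries and 0.00594 with 4 libraries. Next came dpr5, with 38 reads in Canton S and 56 in RAL-208 (3.14 and 4.74 CPM) but 2 and 6 in gl[60j] (0.177 and 0.222), 19.7-fold lower (log2 fold change -4.13, SE 0.70). From pooled reads its ratio of mutant to wild type had an exact 95% interval of 0.0223 to 0.109. The gene next to it in the genome, dpr4, was at 4.79 and 6.69 CPM in wild type against 1.06 and 1.48 in gl[60j], 4.52-fold lower (log2 fold change -2.00, SE 0.53), so both of these neighbours were lower.

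The founding gene dpr1 was at 10.2 and 9.23 CPM in wild type against 1.24 and 0.961 in gl[60j], 8.84-fold lower (log2 fold change -3.14, SE 0.45). For dpr9 the levels were 23.8 and 20.6 CPM in wild type against 3.28 and 2.66 in gl[60j], 7.48-fold lower (log2 fold change -2.89, SE 0.31). Both genes were called by DESeq2 too, with an adjusted p of 0.00117 for dpr1 and 1.47e-06 for dpr9. The gene dpr10, whose product binds DIP-alpha on motor neurons and in the medulla of the optic lobe, stood at 8.91 and 9.83 CPM in wild type against 1.51 and 1.33 in gl[60j], 6.61-fold lower (log2 fold change -2.68, SE 0.43). Its close relative dpr6, another ligand of DIP-alpha, was at 3.14 and 3.39 CPM in wild type against 1.42 and 1.52 in gl[60j], 2.22-fold lower (log2 fold change -1.06, SE 0.50), and was not called. The most abundant Dpr gene by reads in both wild types was dpr12, which neurons of the mushroom body need for part of their axon growth, with Canton S at 56.9 CPM, RAL-208 at 38.7 and the gl[60j] libraries at 10.8 and 8.76. It was 4.89-fold lower (log2 fold change -2.28, SE 0.34), a gap wider than the one between the strains.

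The other called Dpr genes were between 1.88-fold and 5.87-fold lower. At 24.8 and 27.95 CPM in wild type against 9.83 and 10.4 in gl[60j], dpr7 was 2.61-fold lower (log2 fold change -1.30, SE 0.23), and dpr8, at 13.7 and 11.6 CPM in wild type against 3.63 and 3.33 in gl[60j], 3.64-fold lower (log2 fold change -1.81, SE 0.36). For dpr3 the levels were 4.95 and 5.08 CPM in wild type against 1.24 and 1.07 in gl[60j] (4.34-fold lower, log2 fold change -2.08, SE 0.50), for dpr13 5.86 and 7.79 CPM in wild type against 1.24 and 1.22 in gl[60j] (5.55-fold lower, log2 fold change -2.40, SE 0.51) and for dpr17 6.93 and 6.95 CPM in wild type against 1.59 and 1.74 in gl[60j] (4.17-fold lower, log2 fold change -1.96, SE 0.44). None of these overlapped between the groups. Few reads lay behind dpr14, at 2.81 and 4.32 CPM in wild type against 1.15 and 0.666 in gl[60j] (3.92-fold lower, log2 fold change -2.06, SE 0.61), and dpr2, with 13 and 16 wild-type reads and 3 and 4 mutant reads (1.07 and 1.36 CPM in wild type against 0.266 and 0.148 in gl[60j], 5.87-fold lower). With so few reads dpr2 had an SE of 0.71 on a log2 fold change of -2.62, and DESeq2 gave it no adjusted p. The narrowest gap of any called member was that of dpr19, at 17.5 and 17.3 CPM in wild type against 8.15 and 10.4 in gl[60j], 1.88-fold lower (log2 fold change -0.76, SE 0.25). Between its mutant libraries the unadjusted exact binomial p was 0.0466. It was the 1 member of 50 under 0.05, so a difference beyond counting error is not shown.

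The remaining Dpr genes were not called. The gene dpr11 did not overlap between the groups, with Canton S at 7.59 CPM, RAL-208 at 11.5 and the gl[60j] libraries at 4.16 and 3.51. In which cells of the disc it was expressed cannot be told from these libraries. The level of dpr11 was 2.49-fold lower (log2 fold change -1.29, SE 0.47), with an edgeR adjusted p of 0.0511 in the fit of 4 libraries. Its strains were 1.52-fold apart. For dpr21 the levels were 4.62 and 8.64 CPM in wild type against 1.42 and 1.997 in gl[60j] (3.88-fold lower, log2 fold change -1.78, SE 0.63), and for dpr20 3.30 and 5.08 CPM in wild type against 1.77 and 1.74 in gl[60j] (2.39-fold lower, log2 fold change -1.18, SE 0.56). At 2.23 and 2.71 CPM in wild type against 1.33 and 0.703 in gl[60j], dpr15 was 2.43-fold lower (log2 fold change -1.40, SE 0.55), with its mutant libraries further apart than its strains. None of these 4 genes overlapped between the groups. Only dpr16 went the other way, at 9.99 and 8.47 CPM in wild type against 11.4 and 12.7 in gl[60j], a ratio of mutant to wild type of 1.31 (log2 fold change 0.49, SE 0.31). In the reference annotation dpr16 shares 4.04% of its exon bases with cno on the opposite strand, and cno had 319 and 314 CPM in wild type against 280.3 and 281 in gl[60j]. The labels do not say whether counting used strand, and the part of shared reads was not tested.

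The DIP genes were the sparsest family, with no member above 8.64 CPM in any library. Of 10 members, 9 lay below wild type in both mutant libraries, against 30.3% of all genes. Called lower were 4, against 11.3% of genes tested. The median over the 9 tested was -1.63 and DESeq2 called 0, against 4.28% of genes. DIP-eta, at 3.47 and 4.15 CPM in wild type against 0.974 and 0.740 in gl[60j], was 4.44-fold lower (log2 fold change -2.15, SE 0.54), whereas DIP-theta, separated from it by 1 coding gene, had 5.78 and 4.74 CPM in wild type against 4.69 and 4.18 in gl[60j], a log2 fold change of -0.21 with an SE of 0.43. With CPM scaled by TMM, the values of DIP-theta overlapped between the groups. DIP-kappa stood at 3.88 and 4.24 CPM in wild type against 0.708 and 1.26 in gl[60j], 4.13-fold lower (log2 fold change -1.81, SE 0.51), and without the second mutant library its log2 fold change was -2.45.

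DIP-gamma, the receptor that binds Dpr11 on R7 target neurons, was at 4.62 and 4.40 CPM in wild type against 1.51 and 1.29 in gl[60j], 3.22-fold lower (log2 fold change -1.66, SE 0.49). DIP-delta, the partner of Dpr12, was at 6.68 and 8.64 CPM in wild type against 2.30 and 2.37 in gl[60j], 3.28-fold lower (log2 fold change -1.63, SE 0.45). Both were called, and in both the strains lay closer to each other than to either mutant library. DIP-alpha, the partner of Dpr6 and Dpr10, was not called, with Canton S at 4.79 CPM, RAL-208 at 7.96 and the gl[60j] libraries at 3.99 and 3.44. The gap between its strains was wider than that between Canton S and the mutant (log2 fold change -0.75, SE 0.53). In the reference annotation DIP-alpha shares 1.76% of its exon bases with CG2875 on the same strand. CG2875 had 60.3 and 65.2 CPM in wild type against 52.4 and 48.8 in gl[60j]. Exons of ppk8 overlap DIP-alpha and those of CG11828 overlap DIP-gamma, and both had at most 1.27 CPM in any library. The part of shared reads was not tested. For DIP-beta the levels were 2.23 and 3.39 CPM in wild type against 1.51 and 0.924 in gl[60j] (2.31-fold lower, log2 fold change -1.28, SE 0.59), and for DIP-epsilon 6.44 and 7.79 CPM in wild type against 4.07 and 2.995 in gl[60j] (2.01-fold lower, log2 fold change -1.03, SE 0.42). DIP-zeta, at 1.82 and 3.56 CPM in wild type against 0.443 and 0.887 in gl[60j], was 4.04-fold lower (log2 fold change -1.74, SE 0.71), but -2.52 on the log2 scale without the second mutant library.

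All 13 Beat genes lay below wild type in both mutant libraries, against 30.3% of all genes. Called lower were 8, against 11.3% of genes tested, and the median log2 fold change of the family was -2.18. The most abundant called Beat gene, beat-IIa, a ligand of Side-IV, was at 22.9 and 19.1 CPM in wild type against 3.54 and 3.14 in gl[60j], 6.30-fold lower (log2 fold change -2.62, SE 0.32), and was the 1 Beat gene called by DESeq2 (adjusted p 3.27e-05). Its relative beat-IIb, with 4 coding genes between them in the reference annotation, was at 4.13 and 3.98 CPM in wild type against 2.04 and 2.40 in gl[60j], 1.83-fold lower (log2 fold change -0.75, SE 0.47), and was not called. The 3 beat-V genes, with at most 3 coding genes between neighbours in the reference annotation, were all called lower. Of these, beat-Vb was at 3.80 and 4.66 CPM in wild type against 0.620 and 0.518 in gl[60j] (7.43-fold lower, log2 fold change -2.86, SE 0.57) and beat-Vc at 1.98 and 2.12 CPM in wild type against 0.354 and 0.259 in gl[60j] (6.68-fold lower, log2 fold change -2.74, SE 0.62). The third, beat-Va, was at 2.72 and 4.07 CPM in wild type against 0.797 and 0.666 in gl[60j] (4.64-fold lower, log2 fold change -2.18, SE 0.61). Each was under 1 CPM in both mutant libraries.

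Within the beat-I group, beat-Ia, the receptor by which motor axons leave their bundle, was at 6.68 and 7.96 CPM in wild type against 2.13 and 1.70 in gl[60j], 3.83-fold lower (log2 fold change -1.93, SE 0.45). For beat-Ic the levels were 5.94 and 7.37 CPM in wild type against 1.68 and 0.924 in gl[60j], 5.11-fold lower (log2 fold change -2.46, SE 0.50). The level of beat-Ib differed between the strains, with Canton S at 2.15 CPM, RAL-208 at 5.68 and the gl[60j] libraries at 0.797 and 0.629, and its log2 fold change of -2.44 (SE 0.88) became -1.58 without RAL-208, and it was not called. Single genes of the other groups were lower as well. Here beat-IV was at 7.92 and 10.1 CPM in wild type against 1.68 and 1.96 in gl[60j], 4.94-fold lower (log2 fold change -2.18, SE 0.45), and beat-VI, the ligand of Side-II, at 6.11 and 7.79 CPM in wild type against 1.95 and 1.33 in gl[60j], 4.24-fold lower (log2 fold change -2.12, SE 0.48). Smaller gaps were seen for beat-VII, at 5.53 and 8.05 CPM in wild type against 4.78 and 3.59 in gl[60j] (log2 fold change -0.71, SE 0.47), and for the beat-III pair. At 26.2 and 28.1 CPM in wild type against 24.97 and 23.9 in gl[60j], beat-IIIc was the most abundant Beat gene, with a log2 fold change of -0.09 (SE 0.19). For beat-IIIb the levels were 7.34 and 5.93 CPM in wild type against 5.67 and 5.25 in gl[60j] (log2 fold change -0.23, SE 0.41), which overlapped between the groups once scaled by TMM.

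The Side family held the most abundant member, side-V, and a member on either side of wild type whose groups lay close together. Of 8 genes, 7 lay below wild type in both mutant libraries, against 30.3% of all genes. Called lower were 5, against 11.3% of genes tested, and the median log2 fold change of the family was -1.20. The largest gap was that of side-II, with Canton S at 16.7 CPM, RAL-208 at 14.4 and the gl[60j] libraries at 1.59 and 2.07, which is 8.48-fold lower (log2 fold change -2.93, SE 0.36). Its edgeR adjusted p was 0.209 with summed mutant libraries and 0.0106 with 4 libraries, and DESeq2 gave 6.18e-05. The called genes side-III, at 28.1 and 23.04 CPM in wild type against 6.55 and 7.03 in gl[60j] (3.77-fold lower, log2 fold change -1.82, SE 0.28), and side-VIII, at 11.2 and 13.98 CPM in wild type against 3.45 and 3.03 in gl[60j] (3.89-fold lower, log2 fold change -1.92, SE 0.38), followed. Smaller gaps were those of side-VII, at 31.3 and 28.5 CPM in wild type against 11.4 and 11.98 in gl[60j] (2.55-fold lower, log2 fold change -1.26, SE 0.22), and side-VI, the partner of the Beat-V proteins, at 16.7 and 13.04 CPM in wild type against 6.46 and 6.36 in gl[60j] (2.32-fold lower, log2 fold change -1.14, SE 0.34).

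The remaining Side genes were not called. For side itself, the attractant of motor axons, the levels were 18.3 and 14.4 CPM in wild type against 10.6 and 10.7 in gl[60j], 1.54-fold lower (log2 fold change -0.54, SE 0.30). The most abundant member of all 4 families, side-V, had 1896 reads in Canton S and 1902 in RAL-208 against 1601 and 3805 in gl[60j], or 156 and 161 CPM in wild type against 142 and 141 in gl[60j]. Its log2 fold change was -0.10 (SE 0.11), and the ratio of mutant to wild-type CPM from pooled reads, 0.888, had a counting interval of 0.852 to 0.926. The libraries of side-V thus differ by little, but the groups do not overlap. In the opposite direction, side-IV was at 60.3 and 54.2 CPM in wild type against 69.1 and 64.7 in gl[60j] (log2 fold change 0.28, SE 0.13), with a pooled ratio of 1.15 and a counting interval of 1.08 to 1.23. An antisense gene, asRNA:CR17025, covers 17.5% of the exon bases of side-IV in the reference annotation and had 3 and 5 reads in the wild types and 0 in both mutant libraries.

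**Figure D3:**
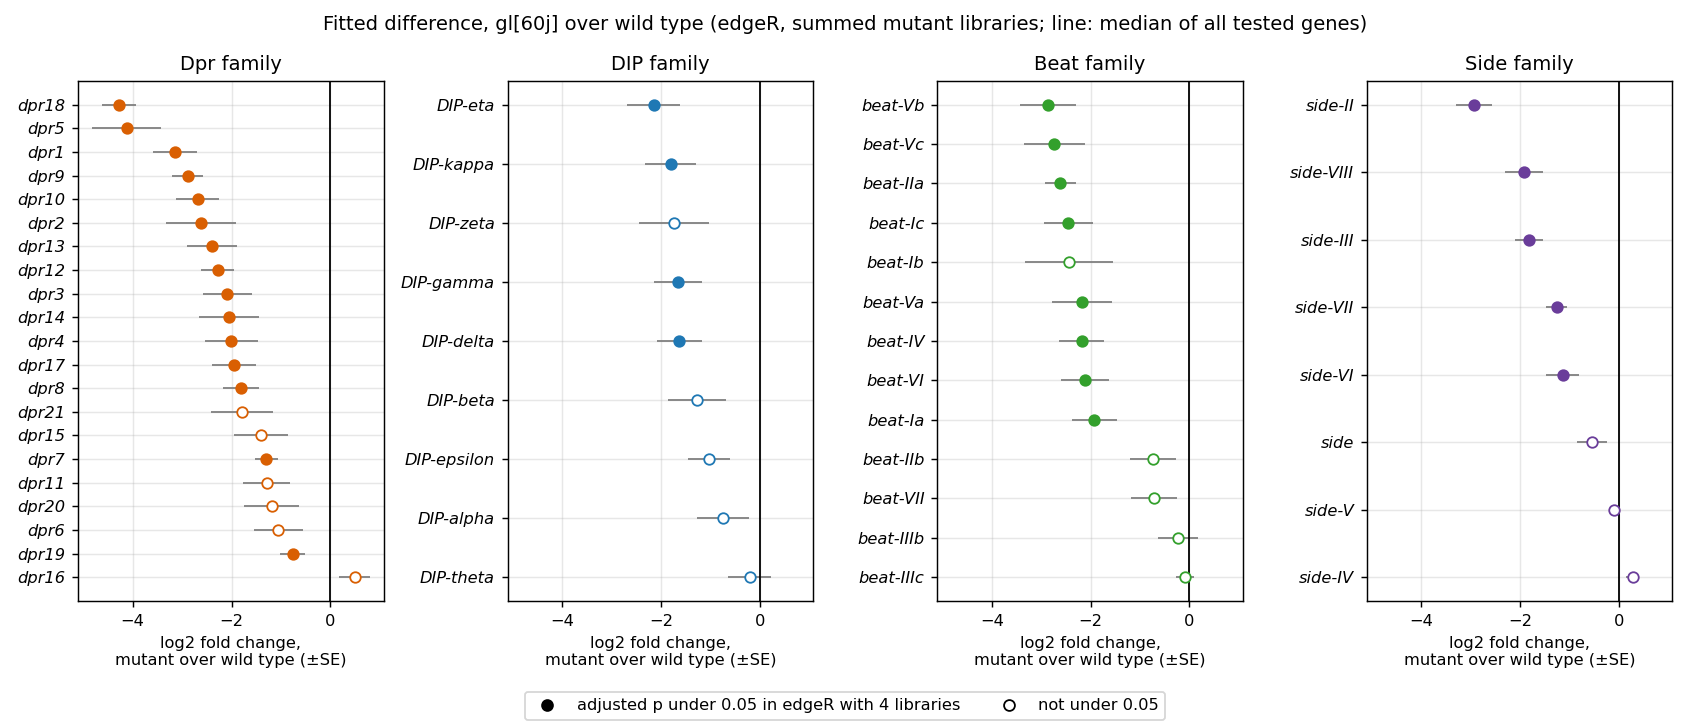
Fitted log2 fold change of mutant over wild type (x) with its SE (bars) for the 51 tested genes (y), by family, from edgeR with summed mutant libraries; filled symbols mark an adjusted p under 0.05 in the fit of 4 libraries, and the line is the median of all tested genes. The values run from -4.28 for dpr18 to 0.49 for dpr16.

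Set beside their known binding partners, the members showed pairs in which both were lower and pairs in which mainly 1 was. The 12 pairs were listed from general knowledge of the families, and the difference between partners was not tested. The list is not complete, since a DIP can bind several Dprs, so it does not show how all partners of a protein differed. For beat-IIa and its partner side-IV the fitted values were -2.62 and 0.28. Per kilobase of annotated exon, the ratio of beat-IIa to side-IV was 0.612 and 0.568 in wild type against 0.0825 and 0.0782 in gl[60j]. A gap of the same direction stood between beat-Ia (-1.93) and side (-0.54), with a ratio per kilobase of 1.49 and 2.26 in wild type against 0.817 and 0.650 in gl[60j]. It also stood between dpr10 (-2.68) and DIP-alpha (-0.75), with 4.72 and 3.13 in wild type against 0.957 and 0.981 in gl[60j].

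Other pairs varied in the size and direction of the gap. The genes dpr11 (-1.29) and DIP-gamma (-1.66) had values within 1 SE of each other. Their ratio per kilobase was 1.10 and 1.75 in wild type against 1.85 and 1.81 in gl[60j]. For dpr12 (-2.28) and DIP-delta (-1.63) the ratio was 8.70 and 4.58 in wild type against 4.79 and 3.78 in gl[60j]. Likewise dpr7 (-1.30) and DIP-kappa (-1.81) were both lower, and so were beat-VI (-2.12) and side-II (-2.93). In this last pair the Side gene, not the Beat gene, had the larger gap. The values of dpr6 (-1.06) and DIP-alpha lay within 1 SE of each other too, and beat-IIb (-0.75) lay below its partner side-IV. The 3 beat-V genes, between -2.86 and -2.18, were each further below wild type than side-VI (-1.14).

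**Figure D4:**
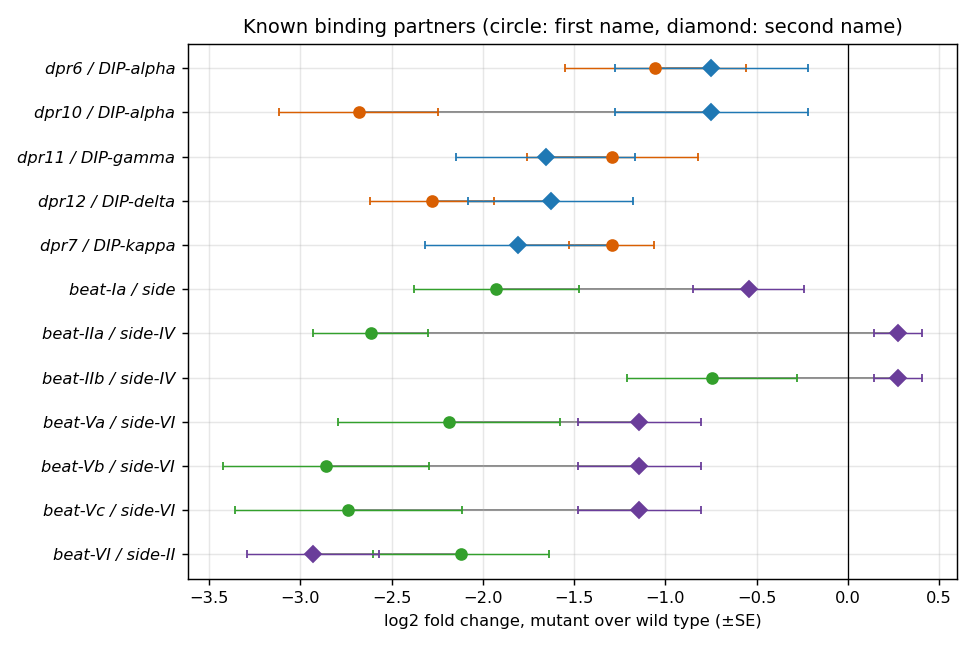
Fitted log2 fold change of mutant over wild type (x, with SE bars) for the genes of 12 known binding pairs (y), circles for the first and diamonds for the second name. In the pair of beat-IIa and side-IV the symbols stand at -2.62 and 0.28, and in that of dpr11 and DIP-gamma at -1.29 and -1.66.

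Ordered by level per length (CPM per kilobase of annotated exon), side-V led both strains, with 27.2 for Canton S and 27.97 for RAL-208, ahead of dpr7 (16.3 and 18.5). Next were side-IV (11.8 and 10.6) and dpr12 (12.1 and 8.23). The strains of these neighbours overlap, so side-IV and dpr12 cannot be ordered. They were followed by beat-IIIc (6.73 and 7.21), dpr18 (6.71 and 7.12), side-VII (7.06 and 6.43), dpr21 (4.65 and 8.70), beat-IIa (7.21 and 6.01) and dpr19 (6.52 and 6.44). The order of these 6 genes differs between the strains, so they are not ranked. In the mutant side-V remained first, at 24.6 and 24.4, and side-IV came second, at 13.5 and 12.6. The gene dpr18 was far down the order there, at 0.370 and 0.323, while dpr16, at 3.42 and 2.90 in wild type, followed dpr7 and beat-IIIc with 3.91 and 4.35. Exon lengths are those of the reference annotation of assembly BDGP6, not of the authors' dm3 annotation, so these levels are approximate.

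Between the wild-type strains, with 1 library each and hence no test, few members were far apart. On the scale of CPM plus 1, 1 of 50 members with a mean of at least 1 CPM was at least 2-fold apart between the strains, against 6.67% of such genes, and this was beat-Ib. The median ratio of RAL-208 to Canton S over all 52 members was 1.11, and 35 members were higher in RAL-208. Over all genes with a mean of at least 1 CPM the median ratio was 1.008, and 4650 of 8940 were higher in RAL-208. By family, 15 of 21 Dpr, 8 of 10 DIP and 10 of 13 Beat genes were higher in RAL-208, but 2 of 8 Side genes. The CNS neuron markers were higher in RAL-208 for 18 of 21 genes, with a median ratio of 1.48, among them Gad1, the enzyme of GABA synthesis, with 11.3 CPM for Canton S and 36.8 for RAL-208. Members with large gaps to the mutant were found in either order of the strains, with dpr18, dpr5, beat-Vb, beat-Vc, dpr10 and beat-Ic higher in RAL-208 and dpr1, side-II, dpr9, beat-IIa, dpr12 and side-III higher in Canton S. Between the mutant libraries, 1 of 50 members, dpr19, differed at an unadjusted exact binomial p under 0.05, against 13.3% of genes with a mean of at least 1 CPM. This test finds fewer differences where reads are few, as in most members, so the comparison does not show that members vary less.

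**Figure D5:**
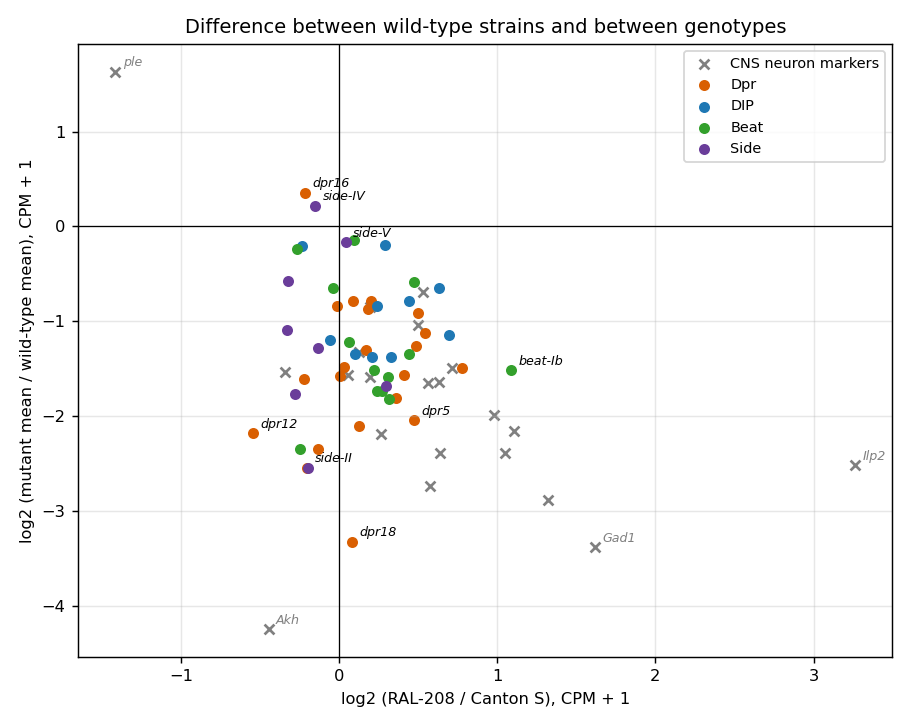
Log2 ratio of RAL-208 to Canton S (x) against log2 ratio of mutant mean to wild-type mean (y), both on CPM plus 1, for the members (coloured points, by family) and the CNS neuron markers (grey crosses). The members sit near 0 on x, with beat-Ib farthest to the right, and mostly below 0 on y, while several CNS markers such as Gad1 lie farther right.

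A list of other surface proteins of axon guidance and target choice had a median closer to that of all genes. Of its 46 entries 39 had a row and all of these were tested. Their median log2 fold change was -0.21, and edgeR with 4 libraries called 13 lower, against 11.3% of genes tested, and 1 higher. The called genes with the largest gaps were CadN2, a cadherin gene (4.46 and 8.64 CPM in wild type against 0.886 and 0.924 in gl[60j], 7.24-fold lower), Dscam3, of the Dscam family of immunoglobulin proteins (52.6 and 52.01 CPM in wild type against 12.3 and 9.10 in gl[60j], 4.89-fold lower), and bdl, an immunoglobulin gene of photoreceptor axon tiling (18.5 and 17.96 CPM in wild type against 6.38 and 6.06 in gl[60j], 2.93-fold lower). They were followed by wrapper, an immunoglobulin gene of glia (21.2 and 21.9 CPM in wild type against 7.53 and 8.54 in gl[60j], 2.68-fold lower), and gogo, a receptor gene of photoreceptor axons (123 and 161 CPM in wild type against 59.3 and 55.5 in gl[60j], 2.47-fold lower). The 1 gene called higher was fra, the netrin receptor (436 and 424 CPM in wild type against 534 and 536 in gl[60j]).

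Markers of cell types had the following counts in the same fit of 4 libraries, which called 11.3% of all genes tested lower and 8.05% higher. In the CNS neuron list 18 of 20 tested genes were called lower and 0 higher (median log2 fold change -2.42), with the largest gaps in Akh, Gad1, Vmat, Rdl and acj6. Of these, Akh is a hormone gene of the corpora cardiaca in the ring gland and so does not mark CNS neurons. In the photoreceptor and retinal neuron list 14 of 17 were called lower (median -1.41), with the largest gaps in Pph13, inaC, jeb, cpx and lz, and 1 higher, ro, a homeobox gene of early photoreceptors. Glial markers summed to 1068 and 1072 CPM in wild type against 1067 and 1049 in gl[60j]. Of these, 3 of 9 were called lower, Eaat1 (10.9-fold), alrm (6.95-fold) and loco (1.33-fold), and 1 higher, Gli. A large part of the glial sum was Gli, at 435 and 374 CPM in wild type against 568 and 564 in gl[60j]. Neuroblast markers summed to 731 and 766 CPM in wild type against 744 and 712 in gl[60j]. Of these, 2 of 8 were called lower, wor (10.1-fold) and ase (2.63-fold). The gene grh alone gave 357 and 342 CPM in wild type against 380 and 365 in gl[60j]. Both sums thus rest mainly on abundant genes and do not show the markers singly. Fat body markers summed to 21119 and 12242 CPM in wild type against 2987 and 2896 in gl[60j], with 4 of 7 called lower, the larval serum protein genes Lsp1alpha, Lsp1beta and Lsp1gamma and the lipoprotein gene apolpp. The fat body genes Fbp1 (7835 and 56.8 CPM in wild type against 1894 and 1839.8 in gl[60j]), Lsp2 (5157 and 302 CPM in wild type against 598 and 573 in gl[60j]) and Fbp2 (465 and 20.2 CPM in wild type against 206 and 209.6 in gl[60j]), not called and named after their values were seen, were far apart between the strains, with both mutant libraries above RAL-208 and below Canton S. Yp1 had at most 2 reads in any library. Muscle and myoblast markers summed to 547 and 793 CPM in wild type against 369 and 354 in gl[60j], with 1 of 10 called lower, sls, a share near that of all genes. Haemocyte markers summed to 501 and 1054 CPM in wild type against 543 and 517 in gl[60j], with 2 of 7 called lower, NimC1 and srp, and 1 higher, PPO2. How far any of these cell populations contributes to the values of the Dpr, DIP, Beat and Side genes was not tested.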

How the data were processed

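RNA-seq libraries of 4 samples were analysed from whole-number counts per FlyBase gene, deposited by the authors as 1 table per library without normalization. The submitters' processing notes name CASAVA 1.8, TopHat2 2.0, HTSeq and build dm3, without roles. An Illumina TruSeq kit was used, per the labels. Summary lines at each table's end entered neither library sizes nor fits. Gene reads were 74.4% to 76.7% of the counted total, reads without a unique alignment 15.9% to 18.9%, reads outside genes 5.04% to 7.16% and ambiguous reads 1.35% to 1.44%. Symbols came from the reference gene table for 13746 of 14885 identifiers. Exon lengths, overlaps and neighbours came from the annotation of assembly BDGP6, which is not dm3, so no coordinates are given.

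The mutant libraries were summed to 1 sample and compared with both wild types using edgeR 4.0.16 (R 4.3.3; quasi-likelihood F test, TMM scaling), with p-values adjusted after Benjamini and Hochberg over all genes tested. filterByExpr, at its minimum count of 10 on the 4 libraries, kept 9059 genes. The fit has 1 residual degree of freedom, so its spread is that between the strains, and the lone mutant sample is assumed to vary like the wild types. Nothing in the labels says whether the strain libraries hold RNA of 1 or several collections, so p-values measure the spread between these libraries. Alternatives were DESeq2 1.42.0, limma-voom (limma 3.58.1), 4 separate libraries, other scaling, no filter, other thresholds and leaving out each library. Fold differences divide mean CPM with no TMM factor, and log2 fold changes are fitted with it. Each SE was derived from the F test, as the size of the log2 fold change over the square root of F. The procedure was tested on simulated data. The members, gene lists, binding pairs and tests were chosen with earlier results of these data known. Every member is reported, and of other lists gl and the called genes with the 5 largest changes in each direction.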

Additional observations from a re-analysis of the deposited data

How the results depend on the processing

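The 51 fitted log2 fold changes of members kept their direction under all 10 alternatives to the fit, 510 values in all, and their median ran from -1.96 (without Canton S) to -1.70 (without RAL-208). Calls depended on how the spread was estimated. With summed mutant libraries 0 genes were called under limma-voom, DESeq2 size factors, no scaling, no filter, and without either mutant library. With the mutant libraries as separate samples edgeR called 1025 genes lower and 729 higher, with 32 members lower. With summed libraries DESeq2 called 388 and 152, with 12 members lower. Leaving out a library gave from 0 to 2678 genes lower and from 0 to 2671 higher, with 0 to 45 members lower and 0 to 2 higher. The nonzero counts come from leaving out a strain, when the spread is that of the technical pair alone. Without Canton S there were 2678 lower and 2671 higher with 45 members lower and 2 higher, and without RAL-208 2195 and 2111 with 40 members lower and 1 higher. In 3 members, DIP-kappa, DIP-zeta and beat-Ib, leaving out 1 library moved the fitted fold change, taken off the log2 scale, by more than 1.5 times. Members 2-fold lower without overlap numbered 28, and 21 to 34 under other pseudocounts, TMM scaling and without each library. Members below wild type without overlap numbered 49, and 47 with TMM scaling, where DIP-theta and beat-IIIb overlapped, a setting chosen after seeing the data. Members at the expression threshold numbered 51, 50 at 2 CPM and 37 at 5 CPM. No share of all genes is given for these other settings, so their counts show only how the number of members moved. No paired analysis was possible because the wild types are different strains and the mutant libraries are technical replicates, so no wild-type library has a matching mutant library. At a median of 1.73 CPM in the first mutant library, depth limits what can be said of most members, and a difference between DIP-iota in the groups was not detectable at this depth.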
